A study of Mus musculus with 20 samples.

Results

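The VEGF system of the tumor was followed through 10 genes of the count table, chosen by name among 55866 genes. They are the 5 ligands Vegfa, Vegfb, Vegfc, Vegfd and Pgf (placental growth factor), the 3 receptor tyrosine kinases Flt1 (VEGFR1), Kdr (VEGFR2) and Flt4 (VEGFR3), and the 2 neuropilins Nrp1 and Nrp2, coreceptors without a kinase domain. RNA-seq counts came from tumors of Rpl22HA/HA x Cdh5CreERT2 (RiboTag EC) mice, female C57BL/6J animals in which tamoxifen (75 mg/kg for 5 days at 3 weeks of age) switches on an HA-tagged ribosomal protein in cells that use the Cdh5 promoter, mainly endothelial cells. The mice received Py8119 mammary tumor cells orthotopically at 8 weeks and then, per the sample labels from about 30 mm3 of tumor volume and per the series text from 50 mm3, either 6-3-A6, an antibody against Notch4, at 25 mg/kg or control mouse IgG for 10 days. From each of 5 tumors per group, part of the cleared lysate was kept as input (the homogenate, with RNA of all tumor cells) and the rest was immunoprecipitated with anti-HA beads (IP, ribosome-bound RNA enriched for the tagged cells), which gives 4 groups of 5 libraries: control IgG input, control IgG IP, 6-3-A6 input and 6-3-A6 IP.

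VEGF ligands are secreted factors that tumor and stromal cells release, and the receptors sit mainly on endothelium. VEGF-A signals chiefly through VEGFR2 to drive sprouting and permeability, VEGFR1 binds VEGF-A, VEGF-B and PlGF tightly and can act as a decoy, and VEGFR3 binds VEGF-C and VEGF-D and is best known from lymphatic vessels and sprouting tumor vessels. Neuropilins bind some VEGF forms and semaphorins and occur on endothelium but also on macrophages, fibroblasts and tumor cells. The comparison of IP with input shows which fraction of the tumor holds each ligand and receptor transcript, and the comparison of 6-3-A6 with control IgG asks whether the Notch4 antibody was accompanied by a shift of that distribution.

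Library totals lay between 11881214 and 26728205 counts, and no member had fewer than 19 counts in any library, so all 10 passed the filter on low counts in every comparison. The description field of the 6-3-A6 samples gives input where their titles give IP and the reverse. Titles were followed: the summed level of the endothelial markers ran from 154 to 248 CPM (each count as a rate of the library total, scaled by TMM factors) in libraries titled input and from 1075 to 5607 in libraries titled IP of that group, and from 182 to 259 and from 1366 to 6197 in the control IgG group. All 16 endothelial markers tested were called higher in IP in both groups, and Ecscr was at 0. The IP was an enrichment and not a purification: macrophage markers summed to 4642 to 7760 CPM in control IgG IP and 3356 to 9066 CPM in 6-3-A6 IP, against 8604 to 12418 and 6438 to 15505 CPM in the inputs. Mural cell markers summed to 204 to 423 CPM in control IgG IP against 135 to 246 CPM in input, and 181 to 398 against 142 to 157 CPM with 6-3-A6. Over both groups 2 of 8 mural markers were called higher in IP, up to 3.79 log2 units, while their median was -0.07. Among the IP libraries, control IgG IP 4 and 6-3-A6 IP 2 had the lowest endothelial sums, 1366 and 1075 CPM, and among the inputs 6-3-A6 input 4 stood apart by a TMM factor of 0.680. In bulk libraries of this kind, fewer cells of a type and less RNA per cell cannot be told apart, and in IP libraries a level joins transcript amount and ribosome load.

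The 3 receptor kinases and Pgf were concentrated in the endothelial IP fraction in both treatment groups, at 6.59 to 18.9 times the input level. Vegfb and Vegfd were lower in IP, at 0.459 to 0.562 of the input level, and Vegfa was lower over both groups together. Vegfc, Nrp1 and Nrp2 did not pass the test in either group. In edgeR's quasi-likelihood test with Benjamini-Hochberg adjustment over 14488 genes, 6 of 10 members were called in control IgG tumors, 4 higher and 2 lower, where 11.4% of all genes were called, 8.26% higher and 3.09% lower. In 6-3-A6 tumors the same 6 members were called in the same directions, where 26.2% of all genes were called, 12.8% higher and 13.4% lower. Over both groups 7 members were called, 4 higher and 3 lower, where 39.3% of all genes were called, 19.1% higher and 20.2% lower. Input and IP libraries did not overlap for 4 members higher and 2 lower with control IgG, as was so for 8.63% and 4.22% of all genes (12.9% in all). With 6-3-A6 they did not overlap for 4 members higher and 1 lower, against 8.43% and 6.32% of all genes (14.8% in all). Over the 10 tumors together, only the 4 higher members had no overlap, against 4.36% of all genes higher and 0.449% lower (4.8% in all).

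**Figure D1:**
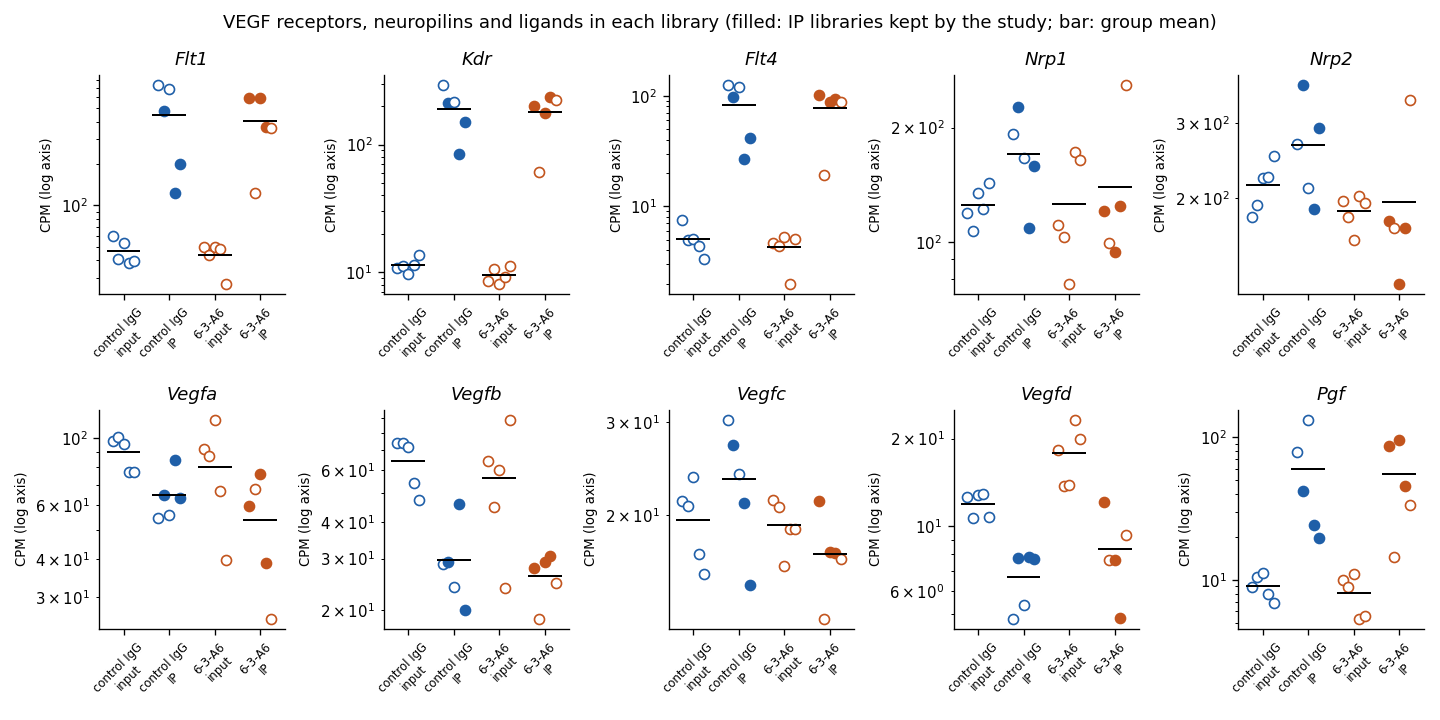
Level of each of the 10 genes in each of the 20 libraries in CPM on a log axis, by group, with the group mean as a bar and filled points where the study kept an IP library. Flt1, Kdr, Flt4 and Pgf lie higher in every IP library than in any input library, with their lowest IP values at 122, 61.0, 19.2 and 14.4 CPM, all in 6-3-A6 IP 2, while most values of Vegfb, Vegfd and Vegfa lie lower in IP, with some overlap for each.

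Kdr (GRCm39, 5:76093487-76139118, minus strand), the main signaling receptor for VEGF-A, had, together with Flt4, the highest mean enrichment in IP among the members, and these genes were not tested against each other. Its level in control IgG input 1 to 5 was 10.8, 11.3, 9.72, 11.5 and 13.6 CPM, and in the matching IP libraries 295, 214, 216, 83.9 and 149 CPM. In 6-3-A6 tumors, input held 8.55, 10.6, 8.10, 9.11 and 11.2 CPM and IP held 201, 61.0, 176, 236 and 225 CPM. No IP library overlapped with an input library, and the IP libraries with the lowest Kdr were control IgG IP 4 and 6-3-A6 IP 2, the ones with the lowest endothelial sums. IP exceeded input by a log2 fold change of 4.07 (SE 0.34, adjusted p = 1.29e-07) with control IgG and 4.24 (SE 0.34, adjusted p = 5.09e-08) with 6-3-A6. Over both groups Kdr ranked 104 of 14488 genes by its log2 fold change.

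Flt4 (11:49500090-49543566, plus strand) had the lowest input level of the members per kilobase of exon. Input libraries 1 to 5 held 7.51, 4.99, 5.03, 4.35 and 3.33 CPM with control IgG and 4.64, 4.38, 5.23, 1.99 and 5.05 CPM with 6-3-A6. IP libraries held 126, 97.6, 120.2, 27.0 and 41.6 CPM with control IgG and 101, 19.2, 87.0, 93.8 and 88.0 CPM with 6-3-A6. The fractions did not overlap in either group. IP was higher by 4.02 on the log2 scale (SE 0.46, adjusted p = 2.76e-06) with control IgG and 4.17 (SE 0.46, adjusted p = 1.39e-06) with 6-3-A6, and the gene ranked 114 over both groups. Since VEGFR3 is also a lymphatic receptor, the lymphatic markers are given beside it: their sum was 32.6 to 59.0 CPM in control IgG IP against 32.5 to 60.8 CPM in input, and 34.1 to 70.7 against 28.1 to 87.9 CPM with 6-3-A6. Of 5 lymphatic markers tested over both groups, Prox1 and Mmrn1 were called higher in IP, Pdpn was called lower and Ccl21a was at 0.

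Flt1 (5:147498414-147662821, minus strand) had the highest receptor level per kilobase of exon in both fractions, whereas per kilobase of counted span Kdr stood above it in IP (4.20 against 2.71 CPM per kb with control IgG and 3.94 against 2.47 with 6-3-A6). Control IgG input libraries held 60.1, 41.1, 53.4, 38.1 and 39.3 CPM and the IP libraries 739.6, 477, 689, 123 and 198 CPM. 6-3-A6 input libraries held 50.0, 43.9, 50.2, 48.1 and 27.1 CPM and the IP libraries 590.2, 122, 590.2, 369 and 359 CPM. Every IP library was above every input library, and the IP values spread over a wider range than those of Kdr. IP was higher by 3.26 on the log2 scale (SE 0.45, adjusted p = 2.30e-05) with control IgG and 3.21 (SE 0.45, adjusted p = 2.13e-05) with 6-3-A6, with rank 275 over both groups. The protein exists as a membrane receptor and as a soluble form from the same gene, which counts per gene cannot separate.

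Pgf (12:85213409-85224564, minus strand), a ligand of VEGFR1, was the only ligand called higher in IP. Input libraries held 8.85, 10.4, 11.2, 7.92 and 6.86 CPM with control IgG and 9.91, 8.91, 10.9, 5.34 and 5.53 CPM with 6-3-A6. IP libraries held 79.0, 41.8, 133, 24.3 and 19.6 CPM with control IgG and 86.3, 14.4, 96.1, 45.3 and 33.6 CPM with 6-3-A6. The fractions did not overlap, but the IP libraries of each group differed from each other by a larger ratio than for any other member. On the log2 scale IP was higher by 2.72 (SE 0.50, adjusted p = 0.000696) with control IgG and 2.75 (SE 0.50, adjusted p = 0.000432) with 6-3-A6, and Pgf ranked 378 over both groups. Over 17 alternatives the log2 fold change ran from 1.77 to 2.96 with control IgG and from 2.46 to 3.11 with 6-3-A6. In single tumors the ratio of IP to input ran from 2.85 to 11.9 with control IgG and from 1.61 to 8.80 with 6-3-A6.

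**Figure D2:**
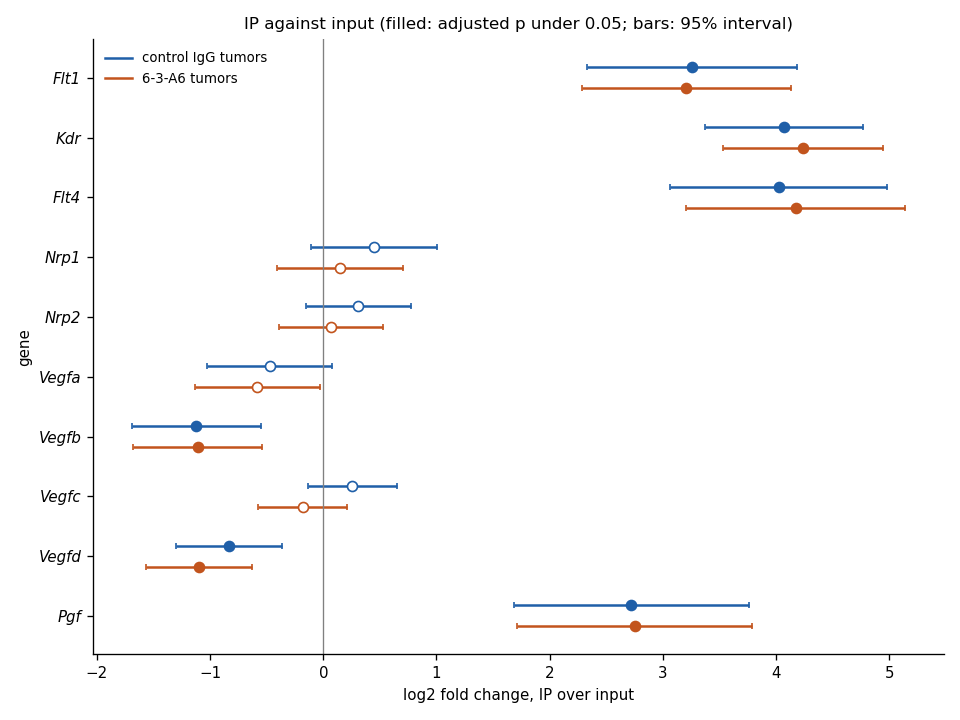
Log2 fold change of IP over input for each member with its 95% interval, control IgG in blue and 6-3-A6 in orange, filled where the adjusted p was under 0.05. Kdr, Flt4, Flt1 and Pgf lie between 2.72 and 4.24, Vegfb and Vegfd between -1.12 and -0.83, and the intervals of both treatment groups overlap for every member.

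The promoters of the 4 genes concentrated in IP are shown because these genes moved together, and that of Vegfd as an example of those that moved the other way. Each run is the 250 bases before the annotated start in RefSeq (GRCm38.p6, a different build from that of the count table), 5′ to 3′ on the gene's strand, and capitals mark the GC box GGGCGG on either strand, a site of Sp1-type factors.
Kdr, chr5:75978456-75978705, minus: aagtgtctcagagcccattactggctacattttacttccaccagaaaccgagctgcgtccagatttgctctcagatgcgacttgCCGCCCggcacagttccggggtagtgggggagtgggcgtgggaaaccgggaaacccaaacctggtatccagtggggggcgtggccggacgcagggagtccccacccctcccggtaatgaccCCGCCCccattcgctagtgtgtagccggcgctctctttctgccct
Flt1, chr5:147726012-147726261, minus: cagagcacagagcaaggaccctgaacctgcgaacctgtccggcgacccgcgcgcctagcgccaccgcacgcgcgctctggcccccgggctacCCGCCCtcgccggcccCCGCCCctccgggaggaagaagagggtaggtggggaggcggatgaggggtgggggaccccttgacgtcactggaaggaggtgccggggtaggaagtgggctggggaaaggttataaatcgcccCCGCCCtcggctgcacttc
Flt4, chr11:49609429-49609678, plus: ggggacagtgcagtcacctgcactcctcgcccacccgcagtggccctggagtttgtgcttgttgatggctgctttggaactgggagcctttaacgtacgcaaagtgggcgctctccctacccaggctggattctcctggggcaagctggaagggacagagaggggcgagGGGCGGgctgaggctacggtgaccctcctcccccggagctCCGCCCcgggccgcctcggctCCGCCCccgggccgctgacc
Pgf, chr12:85177314-85177563, minus: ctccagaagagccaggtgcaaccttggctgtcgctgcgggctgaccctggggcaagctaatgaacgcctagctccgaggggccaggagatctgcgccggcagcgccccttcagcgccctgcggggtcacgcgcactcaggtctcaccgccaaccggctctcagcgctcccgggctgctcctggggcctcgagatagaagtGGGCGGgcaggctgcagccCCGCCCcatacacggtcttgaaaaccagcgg
Vegfd, chrX:164373272-164373521, plus: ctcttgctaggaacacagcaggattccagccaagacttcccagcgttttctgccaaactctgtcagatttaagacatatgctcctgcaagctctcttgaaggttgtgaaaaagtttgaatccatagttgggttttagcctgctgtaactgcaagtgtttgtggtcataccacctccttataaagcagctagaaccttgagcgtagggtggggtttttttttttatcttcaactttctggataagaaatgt

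GC boxes numbered 2 in Kdr, 3 in Flt1, 3 in Flt4 and 2 in this Pgf window, with 0 at the other annotated Pgf start and 0 in Vegfd. The bases G and C made up 61.6% of the Kdr window, 70.4% of Flt1, 68.4% of Flt4, 68.4% of Pgf and 42.4% of Vegfd, where the median of all promoters was 52.4%. They made up 76.4% in Vegfb, which like Vegfd was lower in IP, and 59.6% and 59.2% at the Vegfa starts. Nrp2 had 72.4%, Vegfc 71.6% and Nrp1 64.4%, so base content did not follow the fraction. Of 32851 promoter windows of the same length, 32.7% held a GC box. Other ligands and neuropilins that were not concentrated in IP held it as well, with 4 in Vegfb, 1 and 2 at the Vegfa starts, 2 in Vegfc, 5 in Nrp2 and 1 in Nrp1. The box thus did not separate the members by fraction. An ETS core (AGGAAG or CGGAAG, whose first bases can be the last of a GC box), the letters bound by many endothelial factors, was found 2 times in Flt1 and once in Nrp1, which was not concentrated in IP, and not in the windows of the other members, against 39.2% of all promoters. The core of the hypoxia response element (ACGTG or GCGTG) was found 2 times in Kdr, once in Flt1 and once in the Pgf window shown, but not in Flt4, against 38.6% of all promoters. It was also found in members not concentrated in IP, 2 times in Vegfb, 2 times at 1 of the Vegfa starts, 2 times in Nrp2 and once in Nrp1, and so did not follow the fraction either.

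The remaining ligands were held by the input or by both fractions. Vegfa (17:46327919-46343295, minus strand), the main inducer of vessel sprouting, measured 97.7, 101, 95.8, 77.5 and 77.6 CPM in control IgG input and 54.7, 64.9, 56.0, 84.6 and 63.7 CPM in IP. With 6-3-A6 it measured 92.2, 87.4, 115, 67.1 and 39.9 CPM in input and 59.8, 68.0, 76.1, 38.7 and 25.5 CPM in IP. The groups overlapped, although IP was below the input of the same tumor in 4 of 5 control IgG tumors and in 5 of 5 6-3-A6 tumors. The difference of IP from input was -0.47 log2 units (95% interval -1.03 to 0.08, adjusted p = 0.267) with control IgG and -0.58 (95% interval -1.14 to -0.03, adjusted p = 0.106) with 6-3-A6. Over both groups Vegfa was called lower in IP at -0.53 (SE 0.19, adjusted p = 0.0308). With the tumor as a block, which compares the fractions within each tumor, it was called in each group, at -0.48 (adjusted p = 0.0312) and -0.60 (adjusted p = 0.00634). With library totals in place of TMM factors the call over both groups was lost (-0.37, adjusted p = 0.165). It was also lost when control IgG input 2, control IgG IP 1 or 3, 6-3-A6 input 1 or 3, or 6-3-A6 IP 4 was left out (-0.50 to -0.44, adjusted p = 0.0505 to 0.0678).

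Vegfb (19:6959841-6965019, minus strand), a ligand of VEGFR1, measured 74.5, 74.4, 71.9, 54.3 and 47.4 CPM in control IgG input and 28.7, 29.3, 24.0, 46.0 and 20.1 CPM in IP. With 6-3-A6 input held 64.3, 45.1, 60.0, 23.8 and 89.2 CPM and IP held 27.8, 18.7, 29.2, 30.5 and 24.9 CPM. The fractions did not overlap with control IgG, and with 6-3-A6 they overlapped through 6-3-A6 input 4, the library with the low TMM factor. IP differed from input by a log2 fold change of -1.12 (SE 0.27, adjusted p = 0.00910) with control IgG and -1.11 (SE 0.27, adjusted p = 0.00571) with 6-3-A6. Restricted to the 6 tumors whose IP libraries the study kept, the calls were lost (-0.89, adjusted p = 0.263 and -0.76, adjusted p = 0.144).

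Vegfd (X:163156374-163185646, plus strand), a ligand of VEGFR3 in the mouse, was lower in IP at low levels. Input libraries held 12.6, 10.7, 12.8, 12.9 and 10.8 CPM with control IgG and 18.2, 13.7, 13.9, 23.2 and 19.97 CPM with 6-3-A6. IP libraries held 4.82, 7.78, 5.38, 7.81 and 7.73 CPM with control IgG and 12.1, 7.66, 7.67, 4.84 and 9.33 CPM with 6-3-A6. Input and IP did not overlap within either group. The log2 fold change was -0.83 (SE 0.23, adjusted p = 0.0185) with control IgG and -1.09 (SE 0.22, adjusted p = 0.00137) with 6-3-A6. The control IgG call was lost without the filter on low counts (-0.77, adjusted p = 0.0622), without control IgG IP 3 (-0.76, adjusted p = 0.0616) and in the 6 kept tumors (-0.56, adjusted p = 0.411).

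Vegfc (8:54530641-54640131, plus strand), the other ligand of VEGFR3, did not differ detectably between the fractions. Its mean was 19.6 ± 3.32 CPM (SD, n = 5) in control IgG input, 23.4 ± 5.94 in control IgG IP, 19.2 ± 2.07 in 6-3-A6 input and 16.9 ± 3.00 in 6-3-A6 IP. IP differed from input by 0.26 log2 units (95% interval -0.13 to 0.65, adjusted p = 0.405) with control IgG, -0.18 (95% interval -0.57 to 0.21, adjusted p = 0.495) with 6-3-A6 and 0.04 (95% interval -0.24 to 0.32) over both. A difference of 1 log2 unit in either direction, as measured for Vegfb, lay outside these intervals. Of the ligands of VEGFR3, Vegfd was thus called lower in IP and Vegfc was not, and the difference between these genes was not tested.

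The neuropilins were abundant in both fractions. Nrp1 (8:129085085-129229844, plus strand) measured 119, 107, 135, 122 and 143 CPM in control IgG input and 192, 227, 166, 109 and 159 CPM in IP, and 111, 103, 77.5, 173 and 165 CPM against 120.3, 99.5, 94.2, 124 and 259 CPM with 6-3-A6. Nrp2 (1:62742444-62857854, plus strand) measured 181, 192, 223, 224 and 251 CPM against 268, 368, 211, 188 and 292 CPM with control IgG, and 197, 181, 159, 202 and 194 CPM against 176, 170.3, 126, 170.2 and 339 CPM with 6-3-A6. All these groups overlapped, and 6-3-A6 IP 5 was the highest 6-3-A6 IP library for both genes. The log2 fold changes with control IgG were 0.45 (95% interval -0.11 to 1.00, adjusted p = 0.299) for Nrp1 and 0.31 (95% interval -0.15 to 0.77, adjusted p = 0.393) for Nrp2. With 6-3-A6 they were 0.15 (95% interval -0.41 to 0.70) and 0.07 (95% interval -0.39 to 0.53). Scaled by library totals, Nrp1 was called higher in IP over both groups (0.50, adjusted p = 0.0300). Other annotated genes overlap 5.12% of the Nrp2 span and 0.0553% of the Nrp1 span, and the spans of the other 8 members are free of them.

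The distribution did not differ detectably between treatments. In the interaction of treatment and fraction, 0 of 10 members and 0 of 14488 genes (0%) were called by edgeR, with 127 genes at an unadjusted p under 0.05, and DESeq2 called 0 as well, with 162 at an unadjusted p under 0.05. Taken as the IP enrichment (log2) in 6-3-A6 tumors minus that in control IgG tumors, the interaction was 0.17 (95% interval -0.72 to 1.05) for Kdr, 0.15 (95% interval -1.07 to 1.37) for Flt4, -0.05 (95% interval -1.26 to 1.15) for Flt1 and 0.03 (95% interval -1.35 to 1.42) for Pgf. These intervals leave room for differences of more than 2-fold in either direction for Flt1, Flt4 and Pgf. Over 26 alternatives the interaction ran from -0.26 to 1.34 for Pgf and from -0.01 to 0.96 for Kdr. For Flt4 it ran from -0.07 to 0.82 and for Flt1 from -0.29 to 0.63, and none of these passed the threshold. For Vegfc the interaction was -0.44 (95% interval -0.99 to 0.12), with the IP above the input in 4 of 5 control IgG tumors and in 1 of 5 6-3-A6 tumors.

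Levels of different genes were compared per kilobase of annotated exon (GENCODE M21). In control IgG input the order was Vegfb at 40.2 ± 7.92 CPM per kb (SD, n = 5), Vegfa 21.0 ± 2.67, Nrp2 18.1 ± 2.36, Nrp1 12.8 ± 1.44, Vegfc 8.01 ± 1.36, Vegfd 4.96 ± 0.469, Flt1 3.44 ± 0.725, Pgf 3.11 ± 0.607, Kdr 1.26 ± 0.156 and Flt4 0.613 ± 0.187 CPM per kb. Thus 4 of the 5 ligands and both neuropilins stood above all 3 receptors in whole tumor. Of the 9 neighbouring pairs in that order, 7 differed by more than the sum of their SDs, and the exceptions were Vegfa with Nrp2 and Flt1 with Pgf. In control IgG IP the order began with Flt1 at 33.0 ± 20.7 CPM per kb, Nrp2 22.4 ± 6.00, Kdr 21.2 ± 8.76 and Pgf 20.5 ± 16.3, followed by Vegfb 18.5 ± 6.17, Nrp1 17.4 ± 4.45, Vegfa 15.1 ± 2.79, Flt4 10.0 ± 5.52, Vegfc 9.57 ± 2.43 and Vegfd 2.78 ± 0.615 CPM per kb. There only Vegfc and Vegfd, 1 of 9 neighbouring pairs, differed by more than the sum of their SDs.

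In 6-3-A6 tumors the order in input was the same, Vegfb at 35.2 ± 15.1 CPM per kb, Vegfa 18.7 ± 6.60, Nrp2 15.8 ± 1.47 and Nrp1 12.9 ± 4.21, then Vegfc 7.82 ± 0.845, Vegfd 7.40 ± 1.69, Flt1 3.25 ± 0.719, Pgf 2.80 ± 0.879, Kdr 1.05 ± 0.149 and Flt4 0.518 ± 0.160 CPM per kb. In IP it was Flt1 at 30.1 ± 14.4 CPM per kb, Kdr 19.9 ± 7.80, Pgf 19.0 ± 12.0 and Nrp2 16.6 ± 6.93, then Vegfb 16.3 ± 2.92, Nrp1 14.3 ± 6.97, Vegfa 12.5 ± 4.90, Flt4 9.45 ± 4.04, Vegfc 6.91 ± 1.23 and Vegfd 3.46 ± 1.11 CPM per kb. Neighbours differed by more than the sum of their SDs in 3 of 9 pairs in input and 1 of 9 in IP. Reads were counted over whole gene spans, introns included, and divided by span length Vegfb was first in all 4 groups and Flt1 was at rank 5 in IP, so the order depends on the length used. In input, division by span moved Vegfc from rank 5 to rank 9, below Flt1 and Kdr, and Pgf from rank 8 to rank 5, above all receptors, so which 4 ligands stood above the receptors depends on it as well.

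The receptor partners, signal transducers, response genes and ligand processing factors of the VEGF pathway were examined as 4 lists, read against all 14488 genes, of which 19.1% were called higher and 20.2% lower over both groups, with a median log2 fold change of -0.06. Of 18 receptor partners and phosphatases, 8 were called higher in IP over both groups and 4 lower, with a median of 0.16, and the count of lower genes was near the share among all genes. The highest were Cdh5 (VE-cadherin, the junction protein that binds VEGFR2) at 4.36 (SE 0.30, adjusted p = 6.16e-10), the integrin subunit Itgb3 at 3.42 (SE 0.31, adjusted p = 2.22e-08) and Ptprb (VE-PTP, the endothelial receptor phosphatase) at 3.33 (SE 0.27, adjusted p = 6.05e-09). Lower in IP were Axl at -1.01, Gpc1 at -0.93 and Sdc1 at -0.92, a receptor kinase and 2 heparan sulfate proteoglycans. Other genes overlap 47.7% of the Gpc1 span, and the Gpc1 call was lost in the 6 kept tumors (-0.78, adjusted p = 0.126). Cdh5, Ptprb and a further partner called higher, Eng, also stand on the endothelial marker list, and the Cdh5 promoter drives the tag.

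Of 57 signal transducers tested, 17 were called higher in IP and 3 lower, against 19.1% and 20.2% of all genes, with a median of 0.23. Nos3, the endothelial nitric oxide synthase, was at 5.12 (SE 0.45, adjusted p = 1.39e-08), the adaptor Bcar1 (p130Cas) at 5.04 (SE 0.27, adjusted p = 6.75e-11) and the heat shock protein Hspb1 at 3.06 (SE 0.41, adjusted p = 6.57e-06). Other genes overlap 90.1% of the Nos3 span, so its counts are uncertain. Hspb1 had 743 counts summed over all 20 libraries, against 473366 for Bcar1. Prkca at -2.47 (adjusted p = 0.00171), Mapkapk3 at -0.47 (adjusted p = 0.0267) and Pik3r2 at -0.38 (adjusted p = 0.0497) were lower. The call of Pik3r2 held in 4 of 26 alternatives. That of Mapkapk3 held in 18 of 26 and was lost with library totals (-0.31, adjusted p = 0.164), without the filter (-0.41, adjusted p = 0.0921), and without control IgG IP 2 or 3, 6-3-A6 input 5, or 6-3-A6 IP 1, 3 or 4 (-0.45 to -0.37). Of 16 response genes tested among 20 listed, 10 were called higher in IP and 3 lower, against the same shares of all genes, with a median of 0.70. They were led by Igfbp3 at 4.56 (SE 0.40, adjusted p = 1.29e-08), the Notch ligand Dll4 of tip cells at 4.00 (SE 0.30, adjusted p = 1.90e-09) and the peptide Apln at 3.25 (SE 0.30, adjusted p = 3.13e-08), while Vcam1 (-0.93), F3 (-0.87) and Nr4a2 (-0.68) were lower. Esm1, Angpt2 and Kcne3, 3 further response genes, had 0 counts in all libraries, and their spans are wholly overlapped by other genes, so no value is given for them.

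Of 9 genes for ligand processing tested, 2 were called higher and 2 lower in IP, with a median of -0.38, which is near the 19.1% and 20.2% of all genes called in these directions. The proprotein convertases Pcsk6 at 3.38 (SE 0.33, adjusted p = 8.40e-08) and Pcsk7 at 0.47 (SE 0.18, adjusted p = 0.0370) were higher. The Pcsk7 call held in 17 of 26 alternatives and was lost in the 6 kept tumors (0.62, adjusted p = 0.0838) and without control IgG input 1 or 2, control IgG IP 2, 3 or 5, 6-3-A6 input 3, or 6-3-A6 IP 3 or 4 (0.44 to 0.47). Ccbe1, a cofactor of VEGF-C maturation, at -0.79 (adjusted p = 0.00240) and the protease Ctsd at -0.94 (adjusted p = 0.0122) were lower, with 39.8% and 55.7% of their spans overlapped by other genes. The Ctsd call was lost in the 6 kept tumors (-0.85, adjusted p = 0.0602).

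**Figure D3:**
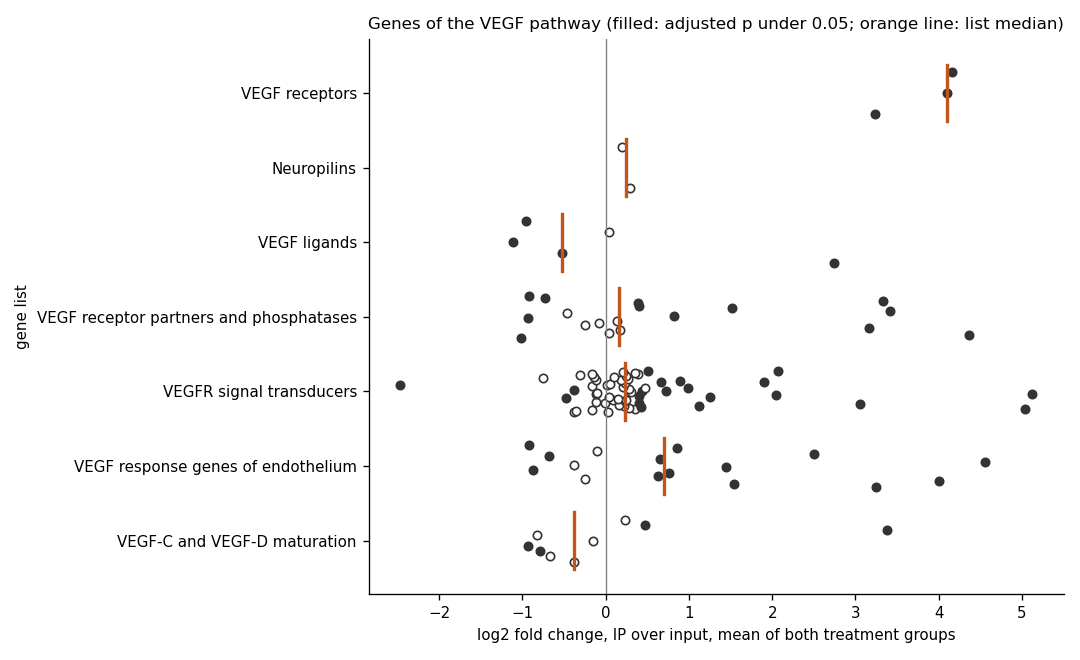
Log2 fold change of IP over input over both treatment groups for the genes of 7 lists (ligands, receptors, neuropilins, partners, transducers, response genes and processing factors), filled where called, with the list median as an orange line. Receptors lie together between 3.23 and 4.15, while ligands run from -1.12 to 2.74 and the median of transducers is 0.23.

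Among the 10 IP libraries, the receptors and Pgf followed the endothelial marker level. The mean log2 CPM of the 16 endothelial markers was 7.75, 7.06, 7.67, 5.54 and 6.33 in control IgG IP 1 to 5 and 7.58, 5.32, 7.37, 7.57 and 7.12 in 6-3-A6 IP 1 to 5, and no difference between the groups was detected (exact permutation test, two-sided, p = 0.865). Across these 10 libraries Pearson's r with it was 0.983 for Flt4 (Spearman's rho 0.915), 0.958 for Flt1 (rho 0.939), 0.946 for Kdr (rho 0.794) and 0.863 for Pgf (rho 0.855), with permutation p-values of r of 4e-05, 0.00014, 0.00032 and 0.00036 among 10 such correlations, left unadjusted. When the pair of libraries with the lowest endothelial level, which is also the pair farthest from the median, was left out, r was 0.927, 0.873, 0.735 and 0.844 over 8 libraries. For the other members r was 0.529 (Vegfc), 0.368 (Nrp1), 0.067 (Nrp2), 0.060 (Vegfb), -0.265 (Vegfd) and -0.417 (Vegfa), and permutation p-values of r ran from 0.118 to 0.863. By rank, Vegfc had a rho of 0.648 (permutation p = 0.0489) and Vegfa a rho of -0.60 (permutation p = 0.0744), both unadjusted, and over the 8 libraries without that pair the rho of Vegfc was 0.619 and that of Kdr 0.595. With this pair left out, Nrp1 and Nrp2 had r of -0.22 and -0.47 (rho -0.14 and -0.45), and Vegfb had an r of 0.691 but a rho of 0.095. All values of a library share its normalization, and the part of that in these correlations was not tested.

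**Figure D4:**
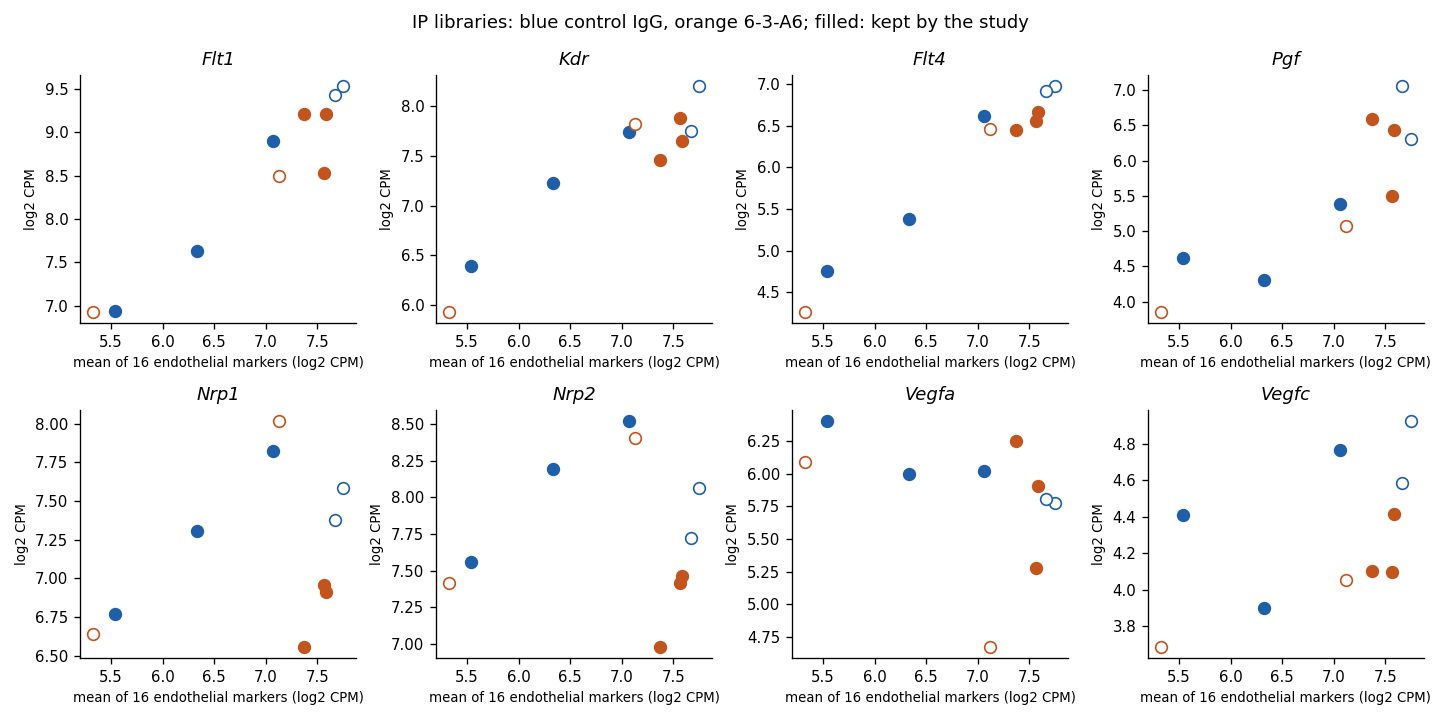
Log2 CPM of 8 members against the mean log2 CPM of 16 endothelial markers, 1 point per IP library (n = 10), colored by treatment, filled where the study kept the library. Flt1, Kdr, Flt4 and Pgf increase along the axis, with r from 0.863 to 0.983, while Nrp2 shows little slope (r = 0.067).

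The genes whose level was most like that of each member over the 10 IP libraries were named by Pearson's r of log2 CPM, as a description. Flt4 was most like Pecam1 (r = 0.992), a junction protein of endothelium, and Kdr was most like Tek (r = 0.992), the angiopoietin receptor. Flt1 was most like Igfbp3 (r = 0.986) and Notch4 (r = 0.981), the target of 6-3-A6. Pgf was most like Rassf3 (r = 0.989). Nrp1 was most like Cemip2 (r = 0.957) and had Nrp2 among its 3 closest genes (r = 0.927), and Nrp2 was most like Tbxas1 (r = 0.949), the thromboxane synthase that is high in macrophages. Vegfa was most like Gramd4 (r = 0.940), Vegfb Lsm12 (r = 0.966), Vegfc Tmem43 (r = 0.959) and Vegfd Dnah14 (r = 0.955). Over all 20 libraries, in which the fractions separate, Vegfb was most like Rplp0 (r = 0.982), a ribosomal protein gene.

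The effect of 6-3-A6 was examined in all 10 IP libraries, in the 6 IP libraries that the study kept after inspecting a PCA of these data (numbers 2, 4 and 5 of control IgG and numbers 1, 3 and 4 of 6-3-A6), and in input. The IP comparisons share libraries and are not independent. Per the paper, the treatment groups separated more clearly once the outlying libraries were removed. Since the 6 libraries were chosen from these same data, p-values of the kept comparison do not allow for that choice, and its calls are descriptive. In all 10 IP libraries 0 of 10 members and 0 of 13602 genes (0%) were called by edgeR, with 286 genes at an unadjusted p under 0.05, and DESeq2 called 0, with 359. The libraries of both treatments overlapped for all 10 members, where they did not for 0.206% of all genes, 0.0662% higher and 0.14% lower. The log2 fold change of 6-3-A6 over control IgG was -0.10 (95% interval -0.90 to 0.70) for Kdr, -0.14 (95% interval -1.23 to 0.94) for Flt1, -0.09 (95% interval -1.10 to 0.92) for Flt4 and -0.12 (95% interval -1.35 to 1.10) for Pgf, all with an adjusted p of 1.00. The member nearest to the threshold was Vegfc at -0.48 (95% interval -0.92 to -0.04, unadjusted p = 0.0362).

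In the 6 kept IP libraries, 1 of 10 members was called, Pgf, where 4.72% of 13999 genes were called, 2.63% higher and 2.09% lower. Pgf measured 41.8, 24.3 and 19.6 CPM in the kept control IgG libraries and 86.3, 96.1 and 45.3 CPM in the kept 6-3-A6 libraries, which do not overlap, as was so for 24.3% of all genes tested (13.6% higher and 10.7% lower). The log2 fold change was 1.38 (SE 0.33, adjusted p = 0.0399), or 2.61-fold, with an adjusted p from 5.01e-07 to 0.978 over 11 alternatives. The control IgG libraries that the study set aside held 79.0 and 133 CPM and the 6-3-A6 ones 14.4 and 33.6 CPM. The call was lost when control IgG IP 4 (1.30, adjusted p = 0.130), control IgG IP 5 (1.18, adjusted p = 0.100), 6-3-A6 IP 1 (1.28, adjusted p = 0.101) or 6-3-A6 IP 3 (1.18, adjusted p = 0.134) was left out.

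The kept libraries also differed in the level of cell type markers. The mean endothelial marker level was 7.06, 5.54 and 6.33 log2 CPM in the kept control IgG libraries and 7.58, 7.37 and 7.57 in the kept 6-3-A6 libraries, with 6 of 16 endothelial markers called higher (median 0.91), and 6 of 12 macrophage markers (median -0.92), 3 of 10 fibroblast markers (median -1.01) and 2 of 7 epithelial markers (median -0.88) called lower. The globin genes, which mark red blood cells, had the largest list median, 3.21, with 0 of 4 called, and their sum was 544, 305 and 29.6 CPM in the kept 6-3-A6 libraries against 27.7, 45.1 and 20.5 CPM in the kept control IgG libraries. The 4 adipocyte markers had a median of -1.16 with 0 called. Of 8 mural markers 1 was called higher and 1 lower (median -0.69, from -2.21 to 2.20). The part of the globin difference in the Pgf result was not tested. With a score of endothelial content as a covariate, Pgf was at 0.37 (adjusted p = 0.978) and 0 of 13999 genes were called. That score itself separates the kept groups, at 0.82, -0.44 and 0.49 with control IgG and 2.36, 2.47 and 2.39 with 6-3-A6, so in 6 libraries it and the treatment cannot be told apart, and the loss of calls says nothing about either. The mean endothelial marker level of the kept 6-3-A6 libraries exceeded that of the kept control IgG libraries by 1.195 log2 units, so that every gene is lowered by this amount when expressed relative to these markers. On that scale the members ran from -2.002 (Nrp2), -1.69 (Nrp1) and -1.52 (Vegfa) over -0.65 (Kdr), -0.23 (Flt4) and -0.04 (Flt1) to 0.21 (Pgf), and no member could fall under p = 0.1, the smallest that an exact permutation test of 3 against 3 libraries allows.

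The other members were not called in the kept libraries. The receptors were at 0.93 (95% interval 0.00 to 1.86, adjusted p = 0.254) for Flt1, 0.74 (95% interval -0.09 to 1.56, adjusted p = 0.310) for Flt4 and 0.43 (95% interval -0.24 to 1.09, adjusted p = 0.488) for Kdr. Without control IgG IP 2, Flt1 (1.69, adjusted p = 0.0172) and Flt4 (1.46, adjusted p = 0.0131) were called. Nrp2 was at -0.87 (95% interval -1.46 to -0.29, adjusted p = 0.0912). Its libraries did not overlap, as was so for 10.7% of all genes lower and 24.3% in all. DESeq2 called it (-0.86, adjusted p = 0.0262), among 1242 of 13999 genes. The remaining ligands were between -0.32 for Vegfa and 0.05 for Vegfd.

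Of the pathway lists in the kept libraries, 3 of 57 transducers were called higher and 0 lower (median 0.16), where 2.63% of all genes were called higher and 2.09% lower and their median was -0.05. They were Nos3 at 1.34 (SE 0.31, adjusted p = 0.0381), Bcar1 at 1.38 (SE 0.33, adjusted p = 0.0417) and Hspb1 at 1.505 (SE 0.31, adjusted p = 0.0254). The Nos3 span is 90.1% overlapped by other genes, and Hspb1 rests on few counts (743 over all 20 libraries). Of 17 response genes 1 was called higher, Apln at 1.33 (SE 0.28, adjusted p = 0.0290), and 2 lower, the leukocyte adhesion molecules Icam1 at -1.19 (SE 0.20, adjusted p = 0.0177) and Vcam1 at -1.46 (SE 0.24, adjusted p = 0.0172). The partner Itgav (-1.29, adjusted p = 0.0246, with 26.8% of its span overlapped) and the processing factors Adamts14 (-1.03, adjusted p = 0.0281) and Ctsd (-0.90, adjusted p = 0.0392, with 55.7% overlapped) were called lower. Each of these 9 calls was lost without 6-3-A6 IP 3, and of the 6 fits that left out a library those of Nos3, Bcar1, Apln and Ctsd were lost in 5, those of Hspb1 and Adamts14 in 4, that of Itgav in 3, that of Vcam1 in 2 and that of Icam1 in 1. The Ctsd call was also lost with library totals (-0.82, adjusted p = 0.0581). In all 10 IP libraries the same 9 genes had an adjusted p of 1.00, with log2 fold changes of 0.11 for Nos3, 0.75 for Bcar1, 0.69 for Hspb1, 0.25 for Apln, -0.60 for Icam1 and -0.49 for Vcam1.

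In input, 0 of 10 members and 0 of 13683 genes (0%) were called by edgeR, with 178 genes at an unadjusted p under 0.05, and DESeq2 called 0, with 220. Vegfd was the member farthest from 0, at 0.56 (95% interval 0.14 to 0.97, unadjusted p = 0.0120, adjusted p = 1.00). Its 6-3-A6 inputs, between 13.7 and 23.2 CPM, were all above the control IgG inputs, between 10.7 and 12.9 CPM, as was so for 0.102% of all genes, with 0.095% wholly below and 0.197% in either direction. The other ligands were between -0.20 (Vegfb) and -0.04 (Vegfc), the receptors between -0.27 (Kdr) and -0.09 (Flt1), and the neuropilins at -0.01 (Nrp1) and -0.21 (Nrp2).

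**Figure D5:**
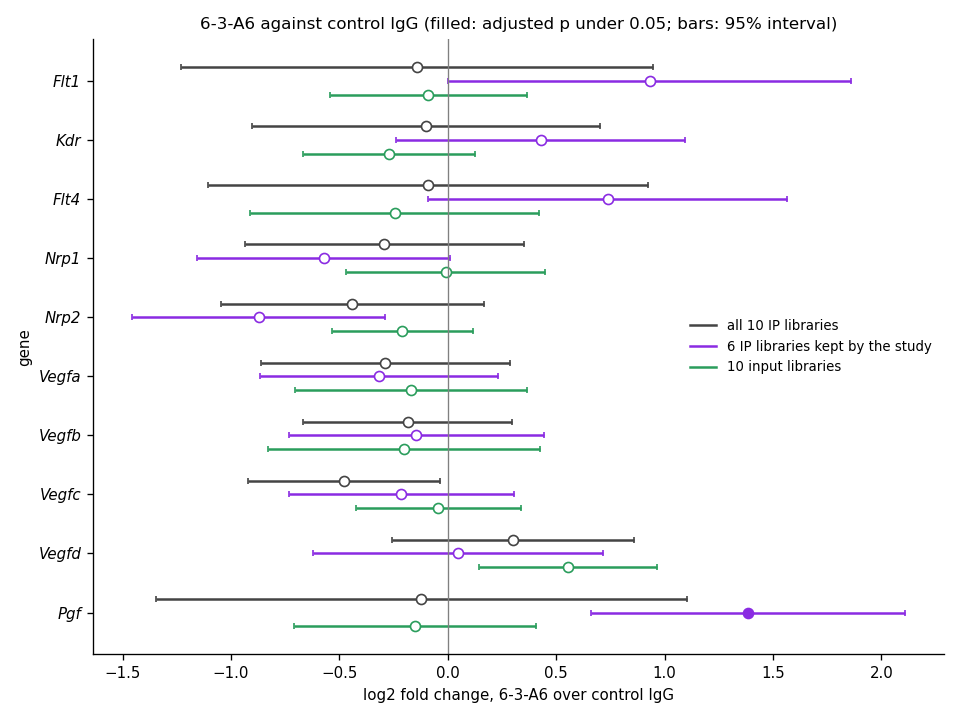
Log2 fold change of 6-3-A6 over control IgG for each member with its 95% interval in all 10 IP libraries (grey), the 6 IP libraries kept by the study (purple) and the 10 input libraries (green), filled where the adjusted p was under 0.05. Only Pgf in the kept libraries is filled, at 1.38, and its value in all IP libraries is -0.12.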

How the data were processed

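RNA-seq was performed on 20 libraries (100 bp single reads), input and IP of 5 control IgG and 5 6-3-A6 tumors. Per the labels and the submitters' processing notes, the authors aligned reads with STAR 2.7.4a and counted them with featureCounts (2.0.1 and 1.5.2 are both named), and the deposited counts are raw counts per gene. The notes name mm10, whereas the coordinates of the count table are GRCm39. The length of each of 55789 single-span genes equals its span, so introns were counted. How strand and reads over several genes were handled is not given in the sources used here. A further table was deposited by the authors, in which the signal of 6 IP libraries is the raw count divided by a DESeq2 size factor (a constant ratio for 100% of genes within 1e-06). It served to identify the libraries kept by the study. Its columns of log2 fold changes with standard errors, test score, p-value and adjusted p-value are the authors' own comparison and were not used.

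Counts were tested with edgeR 4.0.16 in R 4.3.3 (TMM, filterByExpr, robust quasi-likelihood F test, Benjamini-Hochberg adjustment over all genes tested, threshold 0.05). Fraction contrasts came from 1 model of 4 groups over 20 libraries, and treatment contrasts from the 10 IP, 6 kept IP or 10 input libraries. Standard errors are the log2 fold change divided by the square root of F, and 95% intervals use the t quantile. For log2 CPM the prior count was 2. Totals were 11881214 to 26728205 counts (median 16942643). At these depths the limit that a count of 0 allows, taken as 3 counts, is 0.104 to 0.314 CPM, for counting error only. Replicates differed by more than sampling noise (median chi-square per gene at least 1.96 against 0.455), so none was counted as a repeat. Nothing beyond the tumor numbers says how tumors were batched, and p-values measure the spread between these tumors. In the kept libraries they do not allow for the choice of libraries from these data.

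Members, pathway lists and the rule for named genes were chosen with earlier results of these data known. The rule names all members, up to 3 highest and 3 lowest called genes per list for IP over input, every listed gene called between treatments, and the closest genes by correlation, of which the most alike are given. Input and IP with the same number come from the same lysate, per the protocol. The correlation of their deviations from the group means was 0.05 to 0.70 with control IgG and -0.08 to 0.51 with 6-3-A6. Alternatives covered DESeq2 1.42.0, its size factors, library totals, no filter, a replicate block, each library left out, a score of endothelial content, a model per treatment group, and, added after seeing the data, the 6 kept tumors in each fraction contrast and in input, and levels relative to endothelial markers. In simulated counts for the kept comparison, edgeR recovered 136 of 196 changed genes with 9 false calls. That run checks the procedure on simulated counts only. It does not show that calls in the kept libraries, chosen from these data and unlike in endothelial content, are right. Promoters came from RefSeq for all 10 members, and exon lengths from GENCODE M21 (GRCm38).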

Additional observations from a re-analysis of the deposited data

Results flagged for a closer look

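Of 40 sets of 5 libraries (10 genes in 4 groups), 5 held a library whose gap to the nearest other exceeded Dixon's 95% limit. The gap was taken relative to the range of log2 CPM, whereas the levels below are in CPM. By chance about 1 in 20 sets exceeds the limit. Kdr in 6-3-A6 IP 2 measured 61.0 CPM against 176 to 236 CPM in the other 6-3-A6 IP libraries, and Flt4 in the same library measured 19.2 CPM against 87.0 to 101 CPM. That library also had the lowest summed endothelial marker level of all IP libraries, 1075 CPM. Flt4 in 6-3-A6 input 4 measured 1.99 CPM against 4.38 to 5.23 CPM, in the library with a TMM factor of 0.680. Flt1 in 6-3-A6 input 5 measured 27.1 CPM against 43.9 to 50.2 CPM. Nrp1 in 6-3-A6 IP 5 measured 259 CPM against 94.2 to 124 CPM, in the library with the highest macrophage sum of that group, 9066 CPM. The part of these library properties in the values was not tested.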

How the results depend on the processing

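Flt1, Kdr, Flt4 and Pgf were called higher in IP under each of 17 alternatives in either treatment group and each of 26 over both groups. Vegfa over both groups passed in 17 of 26 alternatives, with an adjusted p from 0.000842 to 0.165. It was lost with library totals (-0.37), without the filter (-0.46), in the 6 kept tumors (-0.46) and in 6 fits without a library. In 6-3-A6 tumors it was called without 6-3-A6 input 5 (-0.75, adjusted p = 0.0310). Library totals moved the median of all genes over both groups to 0.12 and turned Vegfc in 6-3-A6 tumors to 0.033 and the Flt1 interaction to 0.026.

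With the tumor as a replicate block, 3221 genes were called in control IgG tumors in place of 1645, Vegfa was called in both groups, Nrp2 in 6-3-A6 tumors was -0.012, the Flt1 interaction was 0.085, and no other member's call changed. Between treatments, tumors share only a number, with deviations of same-numbered libraries correlated at -0.33 to 0.37, and 0 members were called with that block. No paired analysis was possible because the kept libraries of both groups share only number 4.

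In the 6 kept tumors 604 genes were called in control IgG tumors and 3588 over both groups, and the 6-3-A6 group modeled alone gave 2487. There Nrp2 was -0.24 and Nrp1 -0.089 in 6-3-A6 tumors, the Flt1 interaction was 0.63, and in input Vegfa was 0.078, Vegfc 0.054, Pgf 0.043 and Flt1 0.30. Nrp1 in input turned to 0.0093 with DESeq2 and 0.0094 with its size factors.

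Between treatments in the kept libraries, 661 genes and 1 member were called, against 1242 and 2 with DESeq2, 1403 and 4 without the filter (adding Flt1, Flt4 and Nrp2), and 0 and 0 with the endothelial score. That score turned Vegfa to 0.30, Vegfb to 1.27, Flt1 to -1.86, Kdr to -1.60, Flt4 to -1.86, Nos3 to -0.38, Bcar1 to -0.31 and Apln to -0.33, while Hspb1 (1.35), Vcam1 (-1.35), Icam1 (-1.06), Itgav (-1.66), Adamts14 (-1.54) and Ctsd (-1.26) kept their direction without a call. The score separates the kept groups fully, so a call lost in this fit says nothing about its stability. Relative to endothelial markers, a scale that lowers every gene by 1.195, Vegfd was -1.21, Flt1 -0.040, Kdr -0.65 and Flt4 -0.23. The cause was not tested.

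Leaving out each library in turn gave 22 (without 6-3-A6 IP 3) to 675 genes and 0 to 3 members in the kept libraries, 1077 to 2202 genes for IP over input with control IgG, and turned the direction of uncalled values: in the kept libraries Vegfb -0.38 to 0.25, Vegfc -0.41 to 0.047 and Vegfd -0.34 to 0.32. In all IP libraries the ranges were Flt1 -0.37 to 0.11, Flt4 -0.30 to 0.16, Kdr -0.28 to 0.12, Pgf -0.41 to 0.41 and Vegfb -0.29 to 0.040. In input they were Flt1 -0.15 to 0.043, Nrp1 -0.14 to 0.12, Vegfa -0.33 to 0.0034 and Vegfc -0.12 to 0.025. For IP over input they were Nrp1 -0.20 to 0.33 and Nrp2 -0.21 to 0.20 with 6-3-A6 and Vegfc -0.012 to 0.10 over both groups. In the interaction they were Flt1 -0.29 to 0.21, Flt4 -0.067 to 0.40, Kdr -0.0092 to 0.39, Pgf -0.26 to 0.57, Vegfa -0.28 to 0.067 and Vegfb -0.16 to 0.24. Members had 19 to 13926 counts per library, and the part of counting error in the intervals was not tested.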
